A study of Mus musculus with 18 samples.

Results

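miR-203 and miR-205 are microRNAs of stratified epithelium, and their 4 mature arms, mmu-miR-203-3p, mmu-miR-203-5p, mmu-miR-205-5p and mmu-miR-205-3p (written below without the species prefix), were followed through ultraviolet-driven skin carcinogenesis in the Hairless mouse. They are 4 of the 1251 entries of the table and were chosen by name. Small RNA was sequenced from 18 libraries, made from 6 female littermates of the SKH-1E strain, which lacks a working Hairless gene. All mice received chronic ultraviolet B from solar simulators, starting at 3 months of age. Each mouse gave nonlesional, chronically irradiated skin (CHR), a papilloma (PAP) and a cutaneous squamous cell carcinoma (cuSCC), so that each sample type had n = 6 and every group had been irradiated. Skin without irradiation was not part of the comparison. RNA came from homogenised pieces of tissue and not from isolated keratinocytes, so fewer cells of a type and less RNA per cell cannot be told apart in these values.

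A microRNA hairpin is cut into a 5p and a 3p arm, of which usually a single arm is loaded into the silencing complex at high level. The loaded arm pairs with messenger RNAs through its seed, bases 2 to 8. miR-203 is known as a microRNA of the suprabasal, differentiating layers of the epidermis, where its 3p arm represses the stem cell factor p63. miR-205 is abundant in basal keratinocytes and in squamous epithelia generally, where its 5p arm is known to sustain progenitor proliferation through signalling by the kinase Akt and to repress the mesenchymal factors Zeb1 and Zeb2.

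The mature sequences are shown because the results turn on which arm of a hairpin moved. They are those of RefSeq on build GRCm38.p6, 5′ to 3′, with the seed in capitals.
miR-203-3p: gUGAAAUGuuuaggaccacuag
miR-203-5p: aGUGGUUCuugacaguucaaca
miR-205-5p: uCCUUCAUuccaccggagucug
miR-205-3p: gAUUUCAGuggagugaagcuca
The 4 seeds differ from each other, and 0 of the other mature sequences among the 1679 of the RefSeq table have any of them. No arm described here thus has a seed relative among those sequences. Of the 1251 entries measured, 1001 matched one of them by name, and the seeds of the rest were not compared.

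The hairpins show both arms within 1 precursor, with the mature arms in capitals and the loop and flanks in lower case.
Mir203: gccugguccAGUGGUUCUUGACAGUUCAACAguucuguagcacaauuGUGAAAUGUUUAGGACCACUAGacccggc
Mir205: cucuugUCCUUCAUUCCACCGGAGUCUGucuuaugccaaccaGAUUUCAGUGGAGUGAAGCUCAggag
Mir203 lies at chr12:112130880-112130955 on the plus strand of GRCm38, where the GENCODE annotation places no other gene. Mir205 lies at chr1:193507463-193507530 on the minus strand, within exon 2 of the long non-coding RNA 4631405K08Rik, also called Mir205hg. RefSeq places another microRNA, miR-203b, on the minus strand of the Mir203 hairpin, and 20 bases of each of its arms are complementary to an arm of miR-203. The methods do not say whether reads were counted by strand, so it is unknown whether reads of miR-203b could enter the values of miR-203.

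Values are log2 ppm of usable reads after quantile normalisation, and so place each microRNA by its order among the others of the same library on a common scale. Taken back from the log scale, the entries of a library summed to between 2348300 and 2358290 ppm, more than shares of 1 read total can reach, so a value is not read here as a share of the reads, and what raises the sum was not tested. The lowest value, 3.32, was read as not detected. Libraries held between 163 and 365 detected entries, with medians of 281.5 in CHR, 206.5 in PAP and 301.5 in cuSCC, and the read total of each single library is unknown. Of all entries, 293 were above the lowest value in at least 6 libraries and were tested. All 4 arms were among them, miR-203-3p and both arms of miR-205 with detection in 18 of 18 libraries and miR-203-5p with 11. The cuSCC library of mouse 10 stood apart from its type. With each tested microRNA centred on its mean over all libraries, the mean correlation of that library was 0.41 with the PAP libraries. With the other cuSCC libraries it was -0.12. Values that move by a wide margin without mouse 10 are given both ways. A fitted difference without a mouse leaves out all libraries of that mouse, so its shift is not that of 1 library alone.

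miR-205-5p was among the 4 highest entries in every library, and in 8 of 18 it was the single highest. In CHR it ranged from 17.37 to 18.47 with a median of 17.84, in PAP from 17.71 to 18.47 with a median of 18.47, and in cuSCC from 17.37 to 18.47 with a median of 18.22. It held rank 1 in 1 of 6 CHR, 4 of 6 PAP and 3 of 6 cuSCC libraries, and the ranges of the 3 sample types overlapped. In libraries where it was not first, entries such as miR-181a-5p, miR-191-5p, miR-10b-5p and miR-486-5p stood above it.

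**Figure D1:**
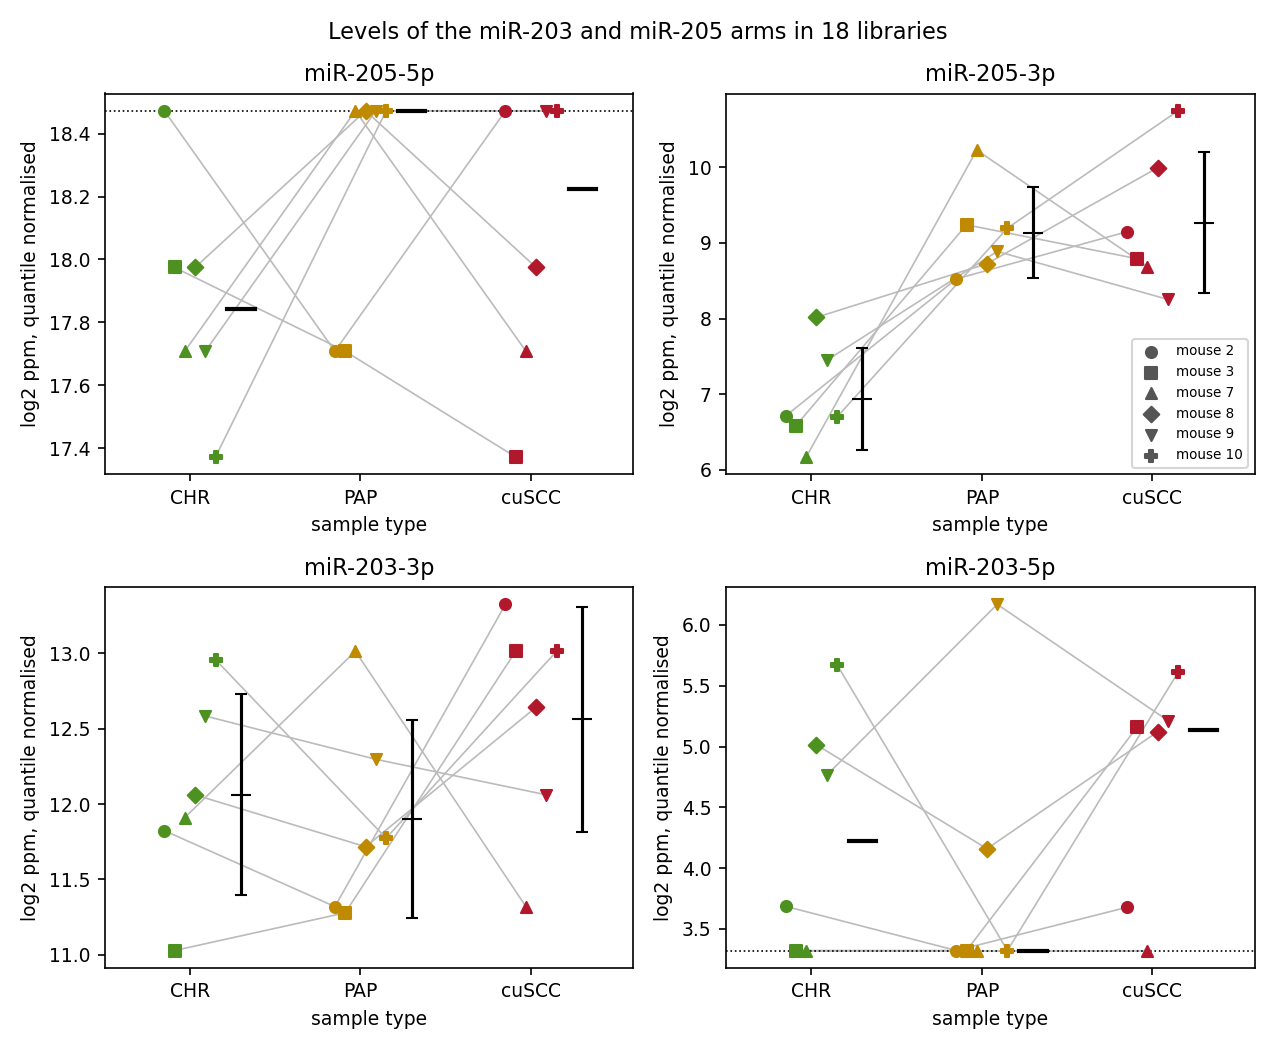
Levels of the 4 arms in log2 ppm after quantile normalisation, by sample type, with 1 symbol per mouse and grey lines joining the samples of a mouse. Black marks give the mean ± SD (n = 6), or the median for miR-205-5p and miR-203-5p, whose values meet the highest (18.47) and the lowest (3.32) value of the scale at the dotted lines. miR-205-3p lies above all CHR samples in all PAP and cuSCC samples, whereas the other arms overlap between the sample types.

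The difference in miR-205-5p was 0.35 between PAP and CHR (standard error 0.26, 95% interval -0.22 to 0.92, limma adjusted p = 0.335). Between cuSCC and CHR it was 0.21 (standard error 0.29, 95% interval -0.42 to 0.84, limma adjusted p = 0.568), and 0.032 without mouse 10. The skin of mouse 10 held the lowest CHR value of this arm, and its cuSCC was at the top of the scale. Between cuSCC and PAP it was -0.14 (standard error 0.29, 95% interval -0.77 to 0.49, limma adjusted p = 0.787). None of these passed. The scale itself bounds this arm. A microRNA at rank 1 cannot rise, and the mean of CHR lay 0.60 below the highest value of the scale, so a rise of the mean by more than 0.60 could not have been recorded. The 18 values of miR-205-5p fell on 4 distinct levels.

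**Figure D2:**
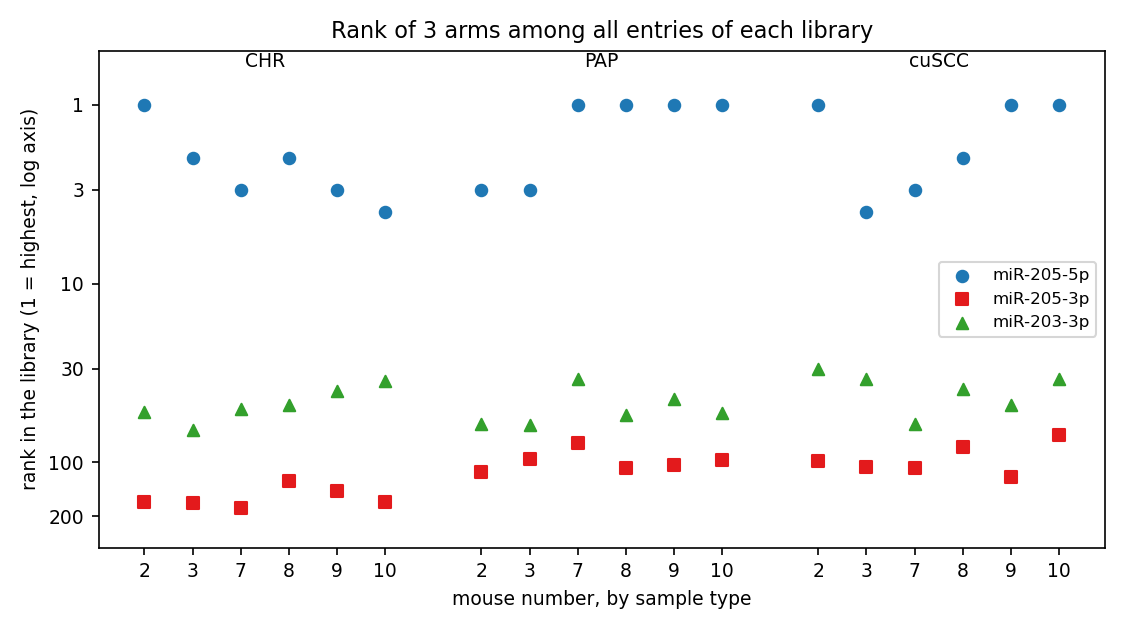
Rank of miR-205-5p, miR-205-3p and miR-203-3p among the 1251 entries of each library, on a log axis with rank 1 at the top, for each mouse and sample type. miR-205-5p stays between ranks 1 and 4, miR-203-3p between 30 and 66, and miR-205-3p moves from 127 to 179 in CHR to 70 to 120 in the lesions.

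miR-205-3p, the minor arm of the same hairpin, rose in both lesions. In CHR it ranged from 6.17 to 8.02 with a median of 6.71, in PAP from 8.52 to 10.22 with a median of 9.04, and in cuSCC from 8.25 to 10.74 with a median of 8.97. Every lesion was above every CHR sample, and the lowest lesion, the cuSCC of mouse 9, was above the highest CHR, that of mouse 8, by a small margin only. Means were 6.94 ± 0.67 in CHR, 9.13 ± 0.60 in PAP and 9.27 ± 0.93 in cuSCC (SD, n = 6).

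The log2 fold change of miR-205-3p in PAP against CHR was 2.19 (standard error 0.37, 95% interval 1.39 to 3.0, limma adjusted p = 0.000641), a 4.57-fold rise of the normalised value. In cuSCC against CHR it was 2.33 (standard error 0.44, 95% interval 1.38 to 3.28, limma adjusted p = 0.000985), or 5.03-fold. It was thus the 1 member of 4 that passed in either comparison, where 14% of all tested microRNAs were called higher and 18.4% lower in PAP, and 20.1% higher and 22.2% lower in cuSCC. Groups that did not overlap, with the lesion higher, were found for 6.48% of tested microRNAs in PAP and 9.9% in cuSCC. Among the 293 tested, 15 had a larger log2 fold change in PAP and 14 in cuSCC, and both comparisons use the same CHR libraries.

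Within mice, miR-205-3p was higher in PAP than in the skin of the same animal in 6 of 6 mice, by 0.71 in mouse 8 to 4.05 in mouse 7. It was higher in cuSCC than in skin in 6 of 6 mice as well, by 0.81 in mouse 9 to 4.05 in mouse 10. The smallest steps were thus those of the mice with the highest skin values, 8.02 in mouse 8 and 7.45 in mouse 9. Without mouse 10, whose cuSCC resembled papilloma and held the highest value of this arm, the change in cuSCC was 1.99 (limma adjusted p = 0.0028).

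Papilloma and carcinoma did not differ in miR-205-3p beyond the spread between mice. The difference was 0.14 (standard error 0.44, 95% interval -0.82 to 1.10, limma adjusted p = 0.844), with cuSCC higher in 3 mice and lower in 3. In this comparison 9.22% of tested microRNAs were called higher and 2.39% lower, and 0 of the 4 arms were among them. Without mouse 10 the difference was -0.15 and without mouse 8 it was -0.09, so even its direction rests on single animals.

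The distance between the arms of Mir205 within a library was smaller in the lesions. miR-205-5p minus miR-205-3p ranged from 9.96 to 11.76 in CHR (median 11.03), from 8.25 to 9.75 in PAP (median 9.23) and from 7.73 to 10.22 in cuSCC (median 8.80). All PAP libraries were below all CHR libraries, and in cuSCC mouse 9 alone reached into the CHR range. These distances are a description without a test, and miR-205-5p had almost no room to rise on this scale.

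**Figure D3:**
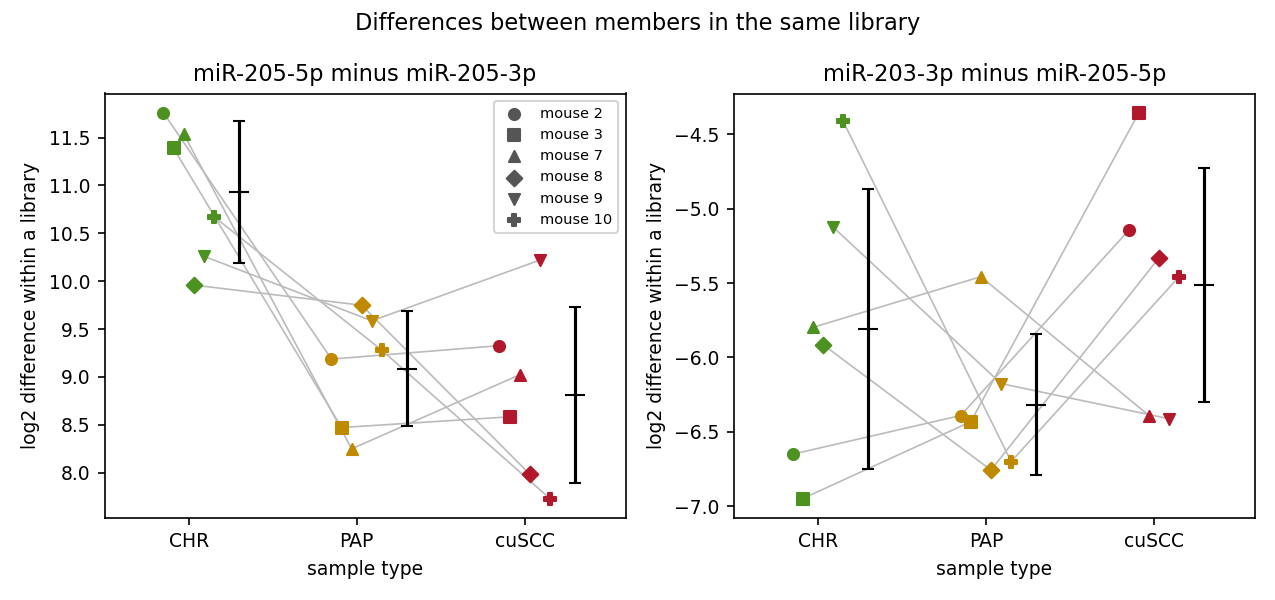
Log2 differences between members within the same library, by sample type, with 1 symbol per mouse, grey lines joining a mouse, and the mean ± SD in black (n = 6). Left, miR-205-5p minus miR-205-3p, where the CHR libraries lie between 9.96 and 11.76 and the PAP libraries between 8.25 and 9.75. Right, miR-203-3p minus miR-205-5p, where the 3 sample types overlap.

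miR-203-3p, the arm that represses p63, was well detected in all libraries and passed in none of the 3 comparisons. In CHR it ranged from 11.03 to 12.96 with a median of 11.99, in PAP from 11.28 to 13.02 with a median of 11.75, and in cuSCC from 11.32 to 13.33 with a median of 12.83. It stood at ranks 35 to 66 in the CHR libraries, 34 to 62 in papillomas and 30 to 61 in cuSCC, and the 3 ranges overlapped nearly whole. Unlike its counterpart miR-205-5p, this arm was far from either end of the scale, with its CHR mean 6.41 below the highest value.

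Against CHR, miR-203-3p differed by -0.16 in PAP (standard error 0.38, 95% interval -0.99 to 0.67, limma adjusted p = 0.779). For cuSCC against CHR the difference was 0.50 (standard error 0.40, 95% interval -0.35 to 1.36, limma adjusted p = 0.322). Between cuSCC and PAP the difference was 0.66 (standard error 0.41, 95% interval -0.22 to 1.55, limma adjusted p = 0.293). These intervals are wide enough to hold a change of nearly 1 log2 unit downwards in PAP and more than that upwards in cuSCC. Animals moved in both directions. PAP was below the skin of the same mouse in 4 mice and above it in 2, and cuSCC was above it in 4 and below it in 2.

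The widest step down from papilloma to carcinoma in miR-203-3p was that of mouse 7, at -1.70, and mouse 9 fell too, by 0.24. The papilloma of mouse 7 held the highest value of all PAP libraries, 13.02, and its carcinoma the lowest of all cuSCC libraries, 11.32. Without mouse 7 the difference between cuSCC and PAP was 1.14 (limma adjusted p = 0.115), and with any other mouse left out it was between 0.39 and 0.84, none of which passed. In PAP against CHR the small difference turned to 0.044 without mouse 10. In cuSCC against CHR it was 0.21 without mouse 3 and 0.72 without mouse 7, and neither passed.

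miR-203-5p, the minor arm, was near the limit of detection. It was above the lowest value in 4 of 6 CHR, 2 of 6 PAP and 5 of 6 cuSCC libraries, with highest values of 5.67, 6.17 and 5.61. The 4 papillomas without detection came from libraries whose lowest detected values were 4.77, 5.40, 6.72 and 6.83, and its detected values elsewhere ran from 3.68 to 6.17, so a level of that size could go undetected in those libraries. Its differences were -0.36 in PAP against CHR (limma adjusted p = 0.662), 0.39 in cuSCC against CHR (limma adjusted p = 0.547) and 0.75 in cuSCC against PAP (limma adjusted p = 0.396). Where undetected values were instead replaced by the smallest detected value found in that library, all 3 turned direction, to 0.78, -0.18 and -0.96, and again none passed.

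Both hairpins thus had an arm that dominated by a wide margin. miR-203-3p exceeded miR-203-5p by 6.13 to 9.69 on the log2 scale over the 18 libraries, and miR-205-5p exceeded miR-205-3p by 7.73 to 11.76. For miR-203 the means of this distance were 7.76 ± 0.56 in CHR, 7.96 ± 1.16 in PAP and 7.88 ± 0.96 in cuSCC (SD, n = 6), with overlapping ranges. These distances include undetected values of miR-203-5p at the lowest value.

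The suprabasal microRNA was compared with the basal microRNA within each library, with the limit that both values lie on the quantile scale and that miR-205-5p is capped at its top. miR-203-3p minus miR-205-5p ranged from -6.95 to -4.41 in CHR (median -5.86), from -6.76 to -5.46 in PAP (median -6.41) and from -6.41 to -4.36 in cuSCC (median -5.39). The ranges overlapped in every pair of sample types, and the widest spread was that of nonlesional skin. Along the 18 libraries the 2 dominant arms hardly followed each other, with a Pearson r of 0.097. The arms of miR-203 correlated at 0.53 and those of miR-205 at 0.39, figures that describe 18 libraries of 6 mice and share the quantile scale.

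**Figure D4:**
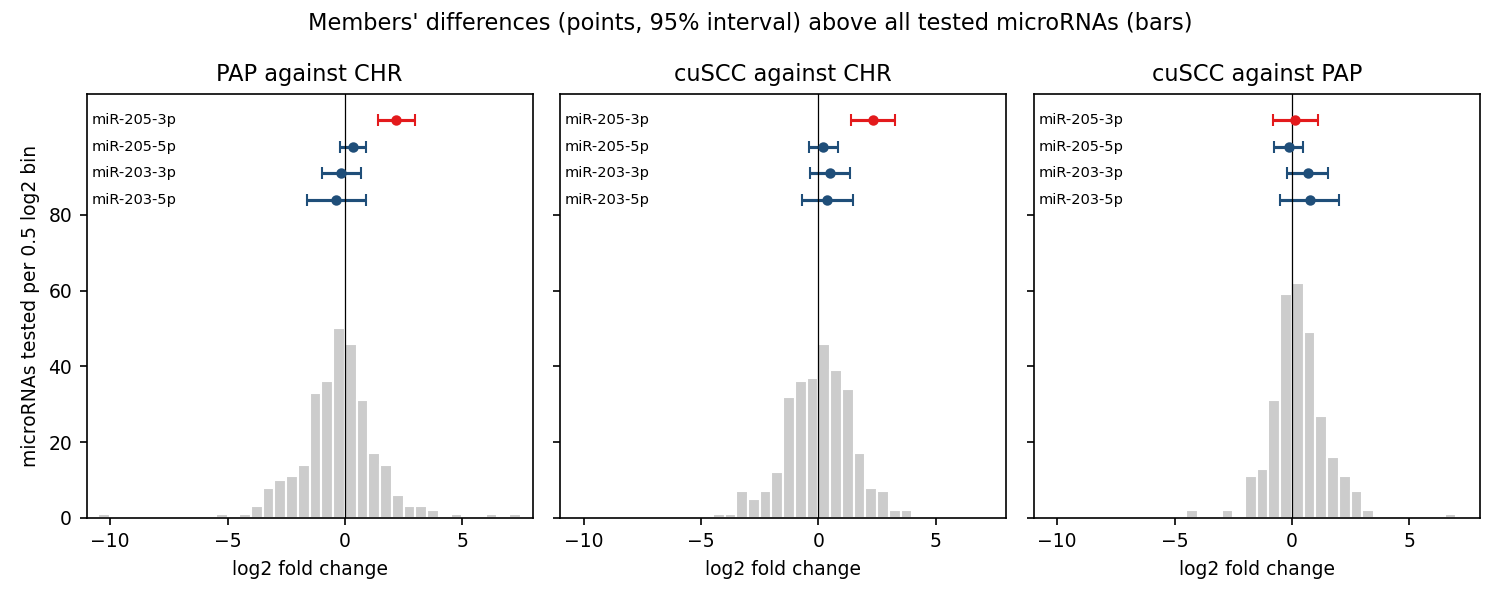
Differences of the 4 arms on the log2 scale with 95% intervals from limma (points and bars at the top), above the distribution of the log2 fold changes of all 293 tested microRNAs in bins of 0.5 (grey), for the 3 comparisons. The interval of miR-205-3p clears 0 in PAP and in cuSCC against CHR, and all other intervals contain 0.

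Other epithelial microRNAs give a setting for these values. The miR-200 family is known to repress Zeb1 and Zeb2, as is miR-205-5p. Both arms of miR-200a, miR-200b, miR-200c, miR-141 and miR-429 were listed, without regard to which arm has that role. Of these 10 arms 8 were tested. In PAP against CHR 6 of them rose and 0 fell, where 14% of all tested microRNAs were called higher. Their median log2 fold change was 1.59 beside -0.23 over all tested microRNAs. In cuSCC against CHR 5 rose and 0 fell, where 20.1% of all tested were called higher, with a median of 1.48 beside 0.11. In cuSCC against PAP 0 rose and miR-200c-3p fell, by 1.45 (limma adjusted p = 0.0319), where 9.22% of all tested were called higher and 2.39% lower. The largest rise of the list in PAP was that of miR-200a-5p, by 2.51 (standard error 0.46, limma adjusted p = 0.00109). The largest in cuSCC was that of miR-141-5p, at 2.43 log2 units (standard error 0.39, limma adjusted p = 0.000295). The arm miR-205-3p shared this direction in both lesions, whereas miR-205-5p and miR-203-3p were not called.

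A second list held 9 microRNAs known from epidermal biology. In PAP against CHR 2 of 9 rose, where 14% of all tested microRNAs were called higher, and 0 fell. The median of the list was -0.25, close to the -0.23 of all tested microRNAs. Those that rose were miR-31-5p, known from hair growth and wound repair, and miR-24-3p, known to promote keratinocyte differentiation, by 3.21 and 0.83 (limma adjusted p = 4.89e-05 and 0.0497). In cuSCC against CHR miR-31-5p, miR-21a-5p and miR-22-3p rose, by 2.72, 2.94 and 1.81 (limma adjusted p = 0.000189, 3.73e-05 and 0.006), and miR-125b-5p, known from skin stem cells, fell by 0.95 (limma adjusted p = 0.0325). These 3 rises and 1 fall among 9 stand beside 20.1% called higher and 22.2% lower of all tested, and the median of the list was 0.42. In cuSCC against PAP miR-34a-5p, which p63 is known to repress, rose by 2.14 (limma adjusted p = 0.0383), and miR-21a-5p and miR-22-3p were also called higher. These 3 rises and 0 falls among 9 stand beside 9.22% called higher and 2.39% lower of all tested. The median of the list was 1.44, beside 0.21 over all tested microRNAs. The calls between cuSCC and PAP, that of miR-200c-3p included, were fragile, since 34 microRNAs were called by limma and 1 without mouse 3, 7 or 8. The exact permutation test called 0, with 75 at an unadjusted p under 0.05 against 83 by limma. With 6 against 6 libraries its p cannot fall below 0.0022. That bound limits what can pass after adjustment, so no conclusion is drawn from the 0.

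Markers of other cell types differed between the sample types. The summed level of 5 epithelial markers, the 3p arms of the miR-200 family, was 11.36 to 12.91 in the CHR libraries, 12.79 to 13.60 in papillomas and 12.35 to 13.30 in cuSCC, with none of the 5 undetected throughout a group. That of 4 skeletal muscle markers was 15.44 to 15.98 in the CHR libraries, 5.32 to 12.45 in papillomas and 6.04 to 14.24 in cuSCC, with miR-1a-3p at the lowest value in all CHR and, together with miR-133b-3p and miR-206-3p, in all PAP libraries. Single libraries set the ends of these ranges, as the muscle sum was 5.32 to 6.67 in PAP without mouse 2 and 13.56 to 14.24 in cuSCC without mouse 10. The muscle sum follows miR-133a-3p, whose CHR mean was 15.63 against 6.26 for miR-133b-3p and 6.54 for miR-206-3p. Of 3 tested muscle markers 3 fell in PAP, and in cuSCC miR-133a-3p alone was called lower. Of 5 fibroblast and smooth muscle markers 3 fell in PAP and 1 in cuSCC, beside 18.4% and 22.2% of all tested microRNAs, and their sum was 14.30 to 15.06 in the CHR libraries, 11.02 to 14.04 in papillomas and 12.53 to 15.51 in cuSCC. In cuSCC without mouse 10 that sum was 14.41 to 15.51, and its median over the 6 carcinomas, 15.21, was above the 14.61 of CHR. Thus in both lesions, where miR-205-3p rose, the median epithelial sum was higher and the median muscle sum lower than in CHR. The leukocyte sum, given below, was also lower in every lesion library than in any CHR library, though not every leukocyte marker fell. The median of the fibroblast and smooth muscle sum was lower in PAP alone. The part of these lists in the rise was not tested.

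Of the remaining lists, the leukocyte sum was lower in both lesions, without overlap with CHR. The endothelial and erythroid sums overlapped between CHR and each lesion type. For the erythroid sum in cuSCC that overlap came from mouse 10 alone. Without mouse 10 the sum was 14.87 to 15.92 in cuSCC, below every CHR library. Both endothelial markers rose in cuSCC and neither was called in PAP, with sums of 7.84 to 9.35 in the CHR libraries, 7.61 to 9.0 in papillomas and 9.26 to 11.17 in cuSCC. Of 4 tested leukocyte markers 2 fell in PAP, while in cuSCC 2 fell and 1 rose, with sums of 13.12 to 14.28 in the CHR libraries, 9.03 to 11.82 in papillomas and 11.13 to 12.59 in cuSCC and miR-142-3p undetected in all PAP libraries. Those that fell in both lesions were miR-150-5p and miR-342-3p, and miR-142-5p rose in cuSCC by 1.53 (limma adjusted p = 0.0132). The leukocyte sum follows miR-150-5p and miR-342-3p, whose CHR means were both 12.45, against 8.59 for miR-142-5p and 9.10 for miR-223-3p. Of 2 tested erythroid markers 1 rose in PAP, and in cuSCC 1 rose and 1 fell. miR-451a rose by 4.78 in PAP and 3.99 in cuSCC (limma adjusted p = 0.00106 and 0.000747). miR-486-5p fell by 1.27 in cuSCC (limma adjusted p = 0.0325). The erythroid sum follows miR-486-5p, whose CHR mean was 17.12 against 5.51 for miR-451a. The counts of these lists stand beside 14% of all tested microRNAs called higher and 18.4% lower in PAP. In cuSCC the shares were 20.1% higher and 22.2% lower. The erythroid sum was 16.69 to 17.84 in the CHR libraries, 16.70 to 18.24 in papillomas and 14.87 to 17.87 in cuSCC, with miR-144-3p undetected throughout. The cuSCC of mouse 10 held the lowest skeletal muscle sum and the lowest fibroblast and smooth muscle sum of the cuSCC libraries, beside the highest miR-205-3p value.

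**Figure D5:**
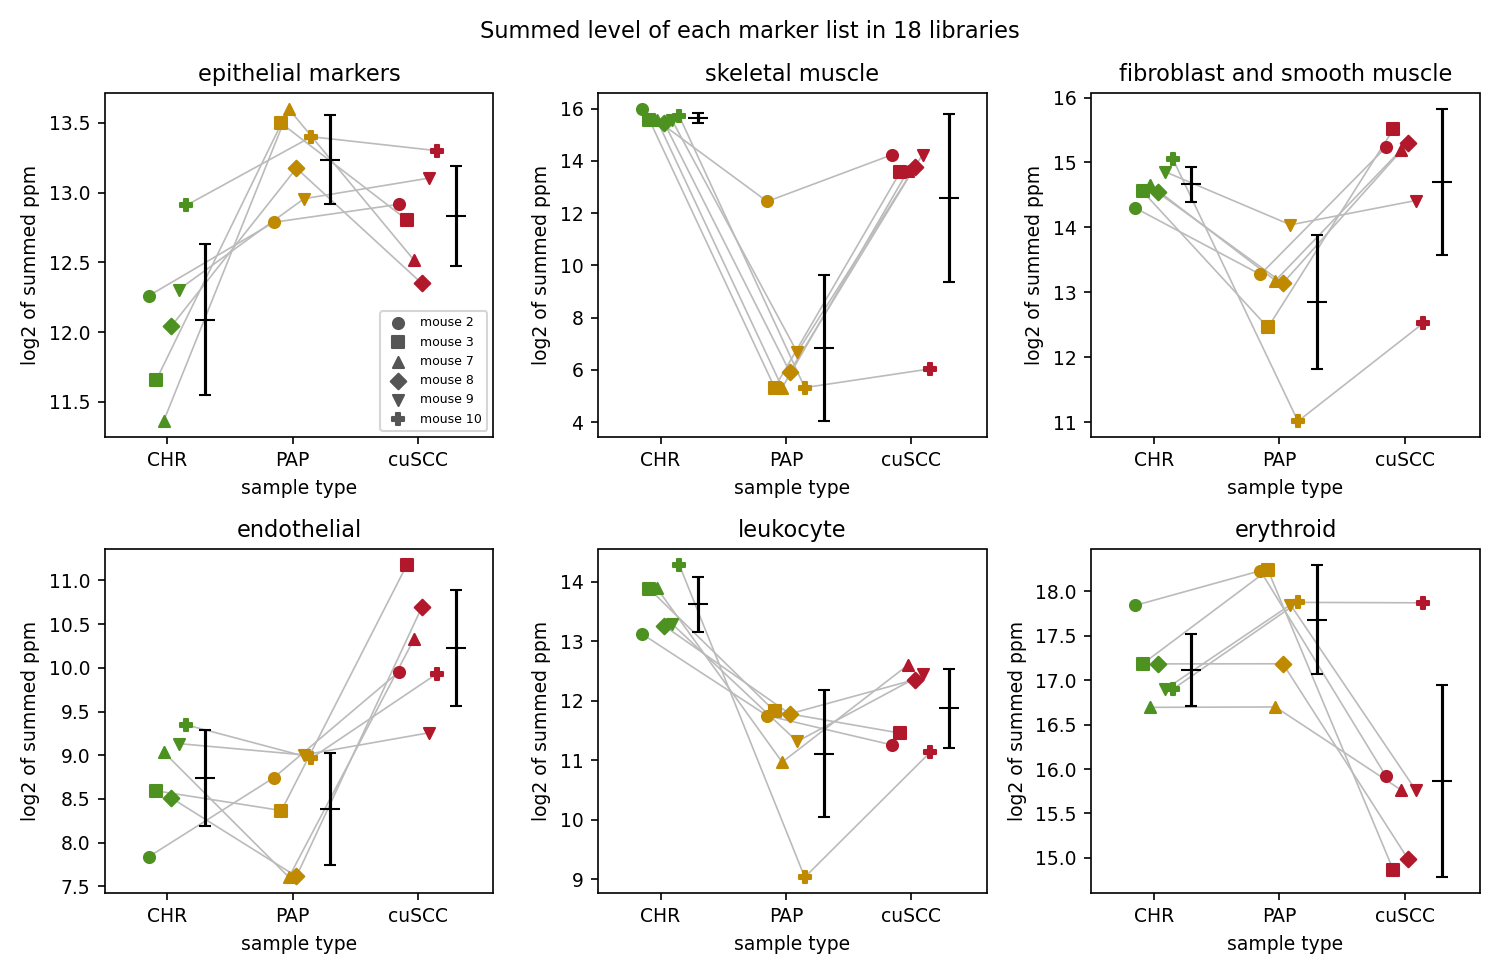
Summed level of 6 marker lists in each library, as log2 of the summed ppm, by sample type, with 1 symbol per mouse, grey lines joining a mouse and the mean ± SD in black (n = 6). Epithelial markers lie between 11.36 and 12.91 in CHR and between 12.79 and 13.60 in PAP, while skeletal muscle markers lie above 15 in all CHR libraries and reach 5.32 in PAP.

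The microRNAs whose pattern over the 18 libraries was most like that of miR-205-3p were miR-138-5p, miR-182-5p and miR-17-5p, with Pearson r of 0.86, 0.84 and 0.84. After subtraction of the mean of each sample type these fell to 0.44, 0.38 and 0.37, so that most of the likeness lay in the step between skin and lesion. For miR-205-5p they were miR-5117-3p, miR-210-5p and miR-125b-1-3p, at 0.83, 0.67 and 0.65. These remained at 0.86, 0.69 and 0.63 within sample types, although over only 4 levels of miR-205-5p.

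For miR-203-3p the most like were miR-96-5p, miR-1843a-5p and miR-301a-3p, with r of 0.70, 0.62 and 0.59, each of them detected in 9 libraries or fewer. For miR-203-5p they were miR-330-5p, miR-17-3p and miR-30b-3p, at 0.55, 0.54 and 0.53. These are descriptions over libraries that share mice and scaling, and nothing about shared control follows from them.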

How the data were processed

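After adapter removal and a filter on short and homopolymer-ending reads, the authors aligned reads to miRBase by BLAST (versions not given in the sources used here) and expressed each microRNA as ppm of usable reads. The submitters' processing notes name build mm10. The deposited values are log2 ppm, and the quantile normalisation between libraries and the lowest value of 3.32 were read from the values. How near-identical sequences were divided between entries is not stated.

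Differences were tested with limma 3.58.1 in R 4.3.3 (two-sided, 6 libraries per sample type, no block) on the 293 microRNAs detected in 6 or more libraries, with Benjamini-Hochberg adjustment over all of them and a threshold of 0.05. The fit was tested on simulated data. Plots and summaries used Python 3.11.15, pandas 2.3.3, numpy 2.4.6 and matplotlib 3.10.9. The members and lists were chosen with earlier results of these data known. MicroRNAs named beside the 4 members are the 3 most correlated with each member and those of the fixed lists, of which up to 4 called with the largest change were named in each comparison. Markers were matched in the spelling of the table (miR-142-3p for miR-142a-3p, for example), and all listed names were found. Of the 1251 entries, 1001 matched a RefSeq mature sequence by name.

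The labels number the mice, and samples that share a number are therefore paired by animal. Deviations of the 2 samples of a mouse from their group means correlated at 0.025 on average for PAP and CHR, -0.0676 for cuSCC and CHR and 0.0582 for cuSCC and PAP. Alternatives were other detection filters, all sample types in 1 fit, mouse as a replicate block, centred libraries, other treatments of low values, an unmoderated and an exact permutation test, and leaving out each mouse. With 1 sample of each type from a mouse, p-values measure the spread between animals of 1 litter.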

Additional observations from a re-analysis of the deposited data

Results flagged for a closer look

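One value lay far from the others of its group. miR-203-5p was at 6.17 in the PAP of mouse 9, against 4.16 in that of mouse 8 and the lowest value in the other 4 papillomas, and the gap to its nearest neighbour was 0.706 of the whole range of the group, above Dixon's critical value for 6 samples. That library held no detected value under 5.48. In all, 21 groups of 6 samples were examined, and chance alone flags about 1 group in 20 where values are normally distributed. With 4 of these 6 values tied at the lowest value, that rate does not hold for this flag.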

How the results depend on the processing

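Of 174 recomputed differences of the 4 arms, 167 kept their direction and their side of the threshold, 0 changed their call and 7 turned direction, all of them differences that had not passed. The rises of miR-205-3p passed under every alternative run, with adjusted p of 0.000514 to 0.0135 in PAP and 0.000639 to 0.0106 in cuSCC. The highest were those of the exact permutation test, where the unadjusted p was the lowest that 6 against 6 libraries allow (0.0022). In the paired fit, with the mouse as replicate block, miR-205-3p passed in PAP (limma adjusted p = 0.00963) and in cuSCC (limma adjusted p = 0.00188), and the block changed no call of the 4 arms. With 1 mouse left out, miR-205-3p changed by 1.82 to 2.49 in PAP and by 1.99 to 2.64 in cuSCC. The turns were those of miR-203-5p with undetected values raised to the smallest detected value in the library (0.78, -0.18 and -0.96), and those with a mouse left out, where miR-203-3p (PAP against CHR) ranged from -0.41 to 0.044, miR-203-5p (PAP against CHR) from -0.71 to 0.038 and miR-205-3p (cuSCC against PAP) from -0.15 to 0.47. In the first case the replacement of 7 of the 18 values of miR-203-5p made the turn. For the turns with a mouse left out the cause was not tested.

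The distance between the arms of miR-203 moved with the same treatment, from 0.20 to -0.94 in PAP against CHR and from -0.08 to 1.62 in cuSCC against PAP. miR-203-5p had no value in a filter of 12 libraries or with a lowest value of 100 ppm, where it does not vary. Centring moved every log2 fold change by -0.14, -0.04 and 0.10 in the 3 comparisons.

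The number of called microRNAs was 95 in PAP against CHR (55 to 79 with 1 mouse left out, 55 without mouse 3 and 59 without mouse 7), 124 in cuSCC against CHR (77 to 129, lowest without mouse 3) and 34 in cuSCC against PAP (1 to 59, lowest without mouse 3, 7 or 8 and highest without mouse 10). The last was also 8 with detection in at least 1 library, 21 with at least 12, 80 with undetected values at the lowest detected value and 6 with the unmoderated test. It was 0 with the exact permutation test, where 75 had an unadjusted p under 0.05 and limma had 83, and where no p can fall below 0.0022. The cause was not tested.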

Other observations

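Set against the mean of the 5 epithelial markers of the same library, a scale chosen after seeing the data, the arms separated differently. That mean was 8.43 ± 0.69 in CHR, 9.89 ± 0.69 in PAP and 9.56 ± 0.61 in cuSCC (SD, n = 6). miR-203-3p stood 3.35 to 4.05 above it in the CHR libraries, 0.87 to 3.50 in papillomas and 2.52 to 3.50 in cuSCC, so that its mean on this scale was lower than in CHR by 1.61 in PAP and by 0.63 in cuSCC. The means of miR-205-5p were lower than in CHR by 1.10 and 0.92, and those of miR-203-5p by 1.81 and 0.74. The markers themselves were higher in the lesions. For miR-205-5p a lower value was fixed in advance, since its mean could rise by 0.60 at most, less than the marker mean did in either lesion. miR-203-5p was detected in only 2 of 6 PAP libraries, with the rest held at the lowest value. The lower values of miR-205-5p and miR-203-5p are thus not read as support for that of miR-203-3p. miR-205-3p stood -2.71 to -0.57 from it in CHR libraries, -1.37 to 0.09 in papillomas and -0.98 to 0.84 in cuSCC, with means higher than in CHR by 0.74 and 1.20 and overlapping ranges. No test was run on these values.

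Among 64 hairpins with both arms tested, 22 had exactly 1 arm called in PAP against CHR and 37 in cuSCC against CHR. The called arm was higher, as for Mir205, in 13 and 18 of these, so such a call was not particular to Mir205. The log2 fold change of the minor arm exceeded that of the major arm by 1.84 for Mir205 in PAP and by 2.12 in cuSCC, beside medians over the hairpins of -0.0026 and 0.09, and 3 and 4 of the 64 hairpins had a larger excess. For Mir205 this excess rests on miR-205-5p as the major arm, which lay 0.60 below the top of the scale in CHR, and its place among the hairpins is not read as a difference between the arms in the tissue.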
